A study of Mus musculus with 6 samples.

Results

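The cytosolic ribosomal protein genes encode the protein subunits of the ribosome that translates the mRNA of the cell. They were taken as every listed gene whose mouse symbol starts with Rpl or Rps followed by a digit, together with Rpsa, Rplp0, Rplp1 and Rplp2. Kinases of the Rps6k group, annotated pseudogenes and genes with provisional names were left out. This rule found 87 of the 16058 genes listed in the series and used no measured value. Of the 87, 77 encode a standard subunit (46 of the large and 31 of the small subunit), 8 are paralogs or retrogene copies of a subunit gene, and 2, Rps19bp1 and Rpl7l1, encode no subunit of the cytosolic ribosome.

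RNA was sequenced from macrophages that had been sorted out of C57BL/6 spleens, in 6 libraries, 1 for each of 3 gates in each of 2 states. The gates were set on the surface proteins Ly6C, high on inflammatory monocytes, and F4/80, high on red pulp macrophages, and are named Ly6chiF4/80lo, Ly6cloF4/80lo and Ly6cloF4/80hi. Normal spleens were taken at day 0. T-ALL spleens, from mice with T cell acute lymphoblastic leukemia, were taken at day 15 after transfer of 1000000 GFP+ leukemia cells per mouse. Recipients were 6 to 8 weeks old and were not irradiated, so that the host's own blood-forming cells were not ablated. The labels do not say how many mice were pooled or whether the 3 gates of a state came from separate mice. With 1 library per gate and state, a p-value for a state difference rests on how unevenly it repeats over the 3 gates. One for a gate difference rests on how unevenly it repeats over the 2 states. That spread also holds any difference between gates in their response to leukemia, which cannot be told apart from technical variation. If the gates of a state shared mice, variation between mice would add to the state difference and not to that spread. If they came from separate mice, it would be part of the spread. The driver of the leukemia is not named in the labels.

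A ribosome holds one copy of nearly every subunit protein, and cells that grow make these proteins in step with ribosomal RNA. The mRNAs of mammalian ribosomal proteins start with a tract of pyrimidines, the 5' terminal oligopyrimidine or TOP motif, through which their translation is switched by mTORC1 and the binding protein LARP1. In macrophages, as in other leukocytes, ribosomal protein mRNAs are among the most abundant of the cell, and their share of all mRNA differs between cell types and with growth.

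Some of these genes hold a run of pyrimidines at or near their start, and only genes with such a run are printed here. Windows of 30 bases were taken, which lie at or near an annotated start of genes on which the results turn. They come from RefSeq on GRCm38.p6 and run 5' to 3' on the strand of the gene. Capitals mark the unbroken run of C and T that holds the searched motif.
Rpl12 (chr2:32961703-32961732, plus strand): gcaggatccgTCTTTTCggctttcggctcg
Rpl28 (chr7:4792952-4792981, plus strand): gcctctcgtgTCTCTCTTTCCgtctccggc
Rpl31 (chr1:39367871-39367900, plus strand): cggctacgcgaCTTTCCCTCCCacaaaccc
Rps12 (chr10:23787182-23787211, minus strand): ccaccgccggCCTTTTCCCCTgccgccgcc
Rps27 (chr3:90213631-90213660, minus strand): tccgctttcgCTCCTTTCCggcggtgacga
Rpl36a (chrX:134585671-134585700, plus strand): gcggctctagCCTCTCTCTTTCCgagctgc
Rpl36al (chr12:69184020-69184049, minus strand): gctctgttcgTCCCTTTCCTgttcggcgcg
The first 4 are members that passed the test between states. Rps27 is the subunit gene with the lowest difference between states, and Rpl36a and Rpl36al are a subunit gene and its paralog. The run starts 3 bases before the annotated start in Rpl28 and 2 bases before it in Rps27. It starts 1 base after it in Rpl12, 8 in Rps12, 27 in Rpl36a, 28 in Rpl36al and 31 in Rpl31, so that most of these runs do not lie at the annotated first base.

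The motif searched was CTTTCC or CTTTTC on the strand of the gene, within 250 bases before and 50 bases after each annotated start. Of the 77 subunit genes, 57 had an entry in the RefSeq table, and 32 of these (56.1%) held the motif. It was found in 23.4% of all 32851 promoters listed there, and in 26.4% of the 9428 tested genes with an entry. CCGGAA, searched on both strands and bound by factors of the ETS family, was found in 56.1% of the subunit genes and in 31.9% of the tested genes. The E-box CACGTG, a motif of Myc, was found on either strand in 10.5% of the subunit genes and 11.8% of the tested genes. No match was found near Rps2 or Rpl5 for the pyrimidine motif, which says only that these letters are not in the window. A match is a description of the sequence and not a site of binding.

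The deposited values are FPKM, a count of fragments scaled to the length of the transcript and the size of the library, so that levels of different genes can be set side by side per length. Values in threes are given in the order Ly6chiF4/80lo, Ly6cloF4/80lo and Ly6cloF4/80hi throughout. The depth of the libraries, estimated from the spacing of their low values, was 6570000 to 8490000 fragments. The counting error this leaves was 1.37% to 2.40% at the median member, and 6.62% to 8.56% at the lowest member of at least 10 FPKM. The gate markers followed the labels. Ly6c2 measured 482, 19.9 and 11.8 FPKM in normal and 1405, 21.4 and 19.8 in T-ALL, and Adgre1, which encodes F4/80, measured 86.6, 86.7 and 529 in normal and 47.3, 74.7 and 234 in T-ALL. The sum of 5 macrophage genes (Cd68, Csf1r, Mertk, Itgam and Ptprc) was 1672, 838 and 2599 FPKM in normal and 851, 737 and 1161 in T-ALL. Markers of erythroid, B, T, plasma, NK, progenitor and neutrophil cells were also detected, and no gene of these lists was at 0 in any library. In the pooled RNA of a gate, fewer cells of a type and less RNA per cell cannot be told apart.

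Ribosomal protein genes have many processed pseudogenes and near copies, and the annotation against which reads were counted is not given in the sources used here. For 84 members with a coding transcript in GENCODE M21, a median of 40.2% of the 50-base windows of the longest transcript were also found in a transcript of another gene. The share was under 10% in 11 members and at 90% or more in 0. It was 13.7% in Rps27l, 24.9% in Rpl36al, 32.9% in Rpl31 and 34.5% in Rpl28, and 71.3% in Rps2 and 83.2% in Rps12. Other genes named below with high shares included Rpl3 (85.6%), Rpl36a (85.5%), Rpl10 (85.4%), Rps6 (84.6%), Rpl24 (81.7%), Rpl7a (81.2%) and Rps27 (63.1%). How reads shared in this way were divided was not tested, and the levels of genes with a high share are the less certain for it.

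In normal spleen the Ly6cloF4/80lo gate stood apart. The summed FPKM of the 87 members made up 6.53%, 14.5% and 6.77% of the library sum in normal, so the Ly6cloF4/80lo share was 2.22 times that of Ly6chiF4/80lo and 2.14 times that of Ly6cloF4/80hi. In T-ALL the shares were 11.8%, 15.7% and 13.6%. The share in T-ALL was 1.81 times the normal one in Ly6chiF4/80lo, 1.08 times in Ly6cloF4/80lo and 2.01 times in Ly6cloF4/80hi. Thus the 3 normal libraries spread over a wider range than the 3 T-ALL libraries, and the 2 gates that were low in normal came close to the third. With the marker genes and the 50 highest other genes of any library taken out of the sum, the shares were 9.48%, 19.4% and 9.55% in normal and 17.1%, 20.2% and 18.8% in T-ALL.

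**Figure D1:**
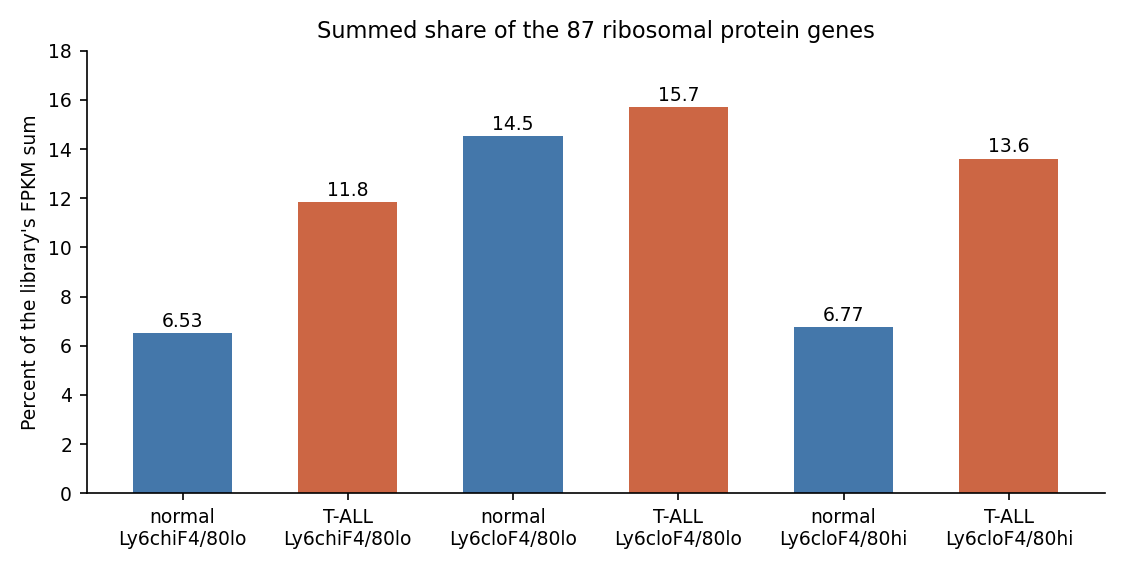
Summed FPKM of the 87 ribosomal protein genes as a percent of the FPKM sum of each library, 1 bar per library with its value above it, blue for normal and red for T-ALL. The normal Ly6chiF4/80lo and Ly6cloF4/80hi libraries are near 6.53% and 6.77%, and the other 4 lie between 11.8% and 15.7%.

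The same picture held gene by gene. The median level of the 77 subunit genes was 355, 870.2 and 374 FPKM in normal and 787, 1007 and 878 in T-ALL. All 77 were highest in Ly6cloF4/80lo among the normal libraries. In T-ALL 72 of 77 were highest in Ly6cloF4/80lo, and the exceptions included Rpl10, Rpl36a, Rpl38 and Rpl41. Among the 50 highest genes of a library there were 3, 22 and 3 members in normal and 13, 23 and 20 in T-ALL. All 77 were found in each library at 10 FPKM or more, and 73 of them at 100 FPKM or more. The median of the large subunit genes over that of the small subunit genes was 0.731, 0.784 and 0.743 in normal and 0.797, 0.812 and 0.906 in T-ALL, while the large subunit's part of the summed level stayed between 53.8% and 56.7% in the 6 libraries.

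**Figure D2:**
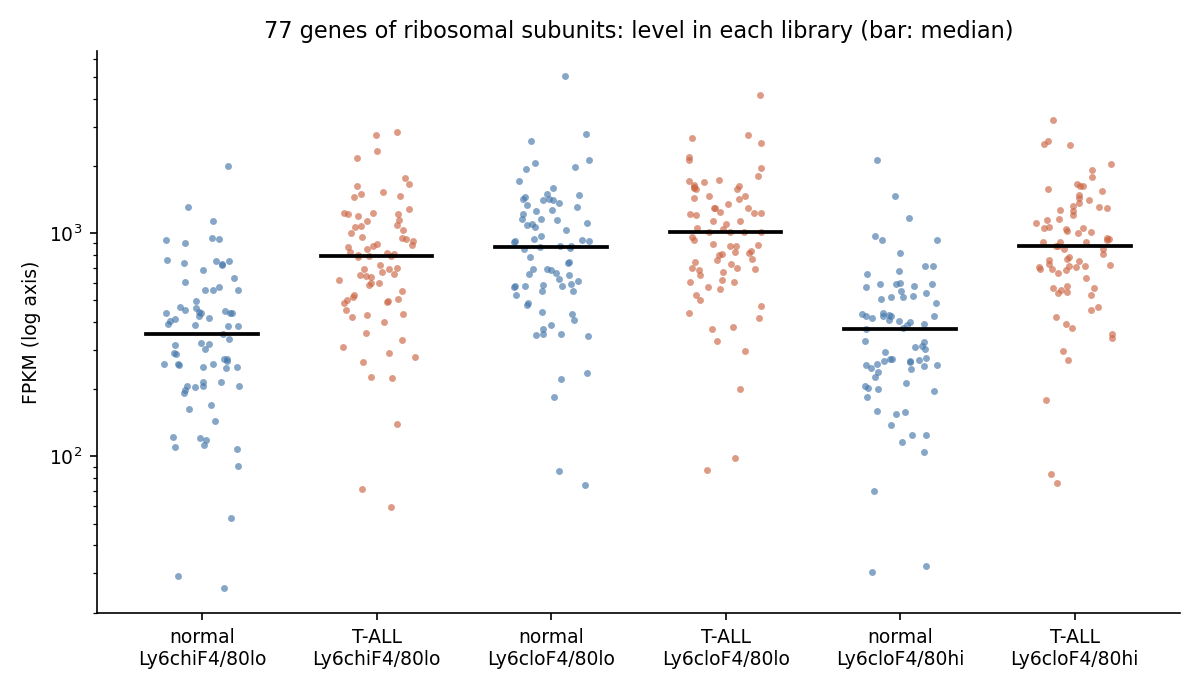
FPKM on a log axis of the 77 subunit genes in each of the 6 libraries, 1 point per gene, with a black bar at the median, blue for normal and red for T-ALL. The medians of normal Ly6chiF4/80lo and Ly6cloF4/80hi, 355 and 374, lie below the other 4, which run from 787 to 1007.

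Within a gate there was 1 library per state, so the differences between T-ALL and normal could be measured but not tested there. In Ly6chiF4/80lo 54 of the 84 members that reached 5 FPKM in either library were at least 2-fold higher in T-ALL, against 7.51% of all genes. In Ly6cloF4/80hi 72 of 84 were, against 10.8% of all genes. In Ly6cloF4/80lo it was 1 of 84, the paralog Rps27l, against 5.69% of all genes. No member was 2-fold lower in any gate, against 4.46%, 1.52% and 6.54% of all genes. The median log2 difference of the members was 1.10, 0.22 and 1.32, and that of all genes was -0.05, 0.02 and 0.05. All 77 subunit genes were higher in T-ALL in Ly6chiF4/80lo and in Ly6cloF4/80hi, and 72 of 77 in Ly6cloF4/80lo, where those lower included Rpl30, Rpl37a, Rps27 and Rps29.

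**Figure D3:**
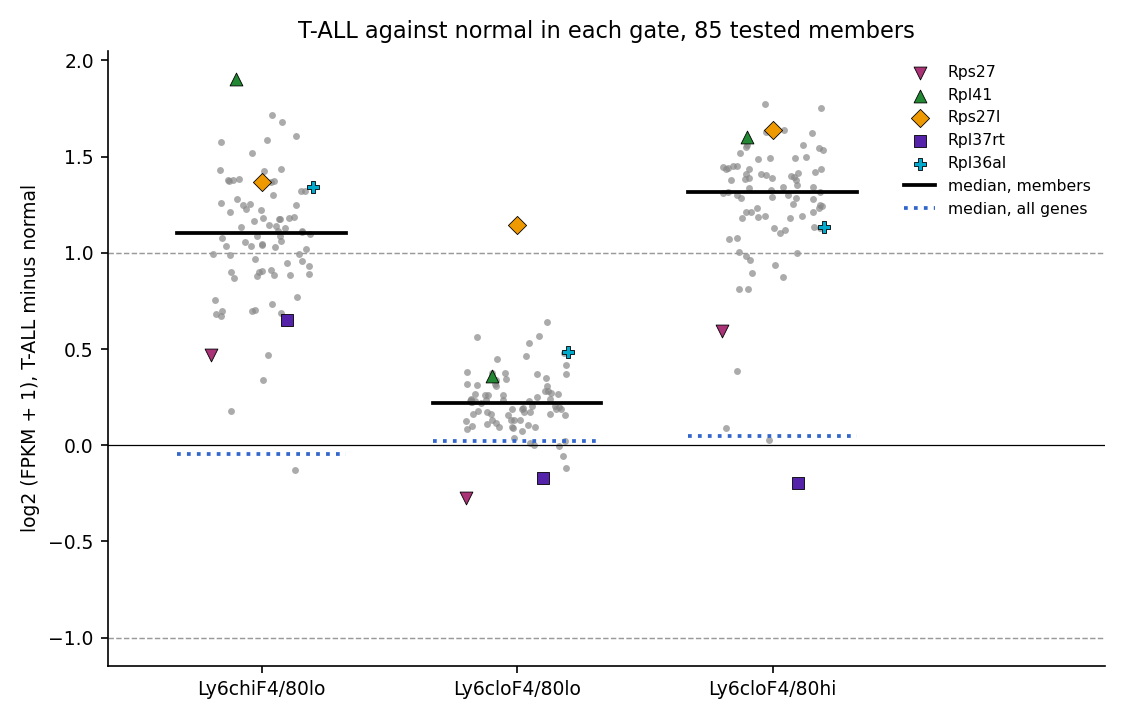
Log2 difference of FPKM + 1 between the T-ALL and the normal library of each gate for the 85 tested members, 1 grey point per gene, with 5 genes marked by their own symbols. Solid bars are medians of the members of at least 5 FPKM (1.10, 0.22 and 1.32), dotted bars are medians of all such genes, and dashed lines mark a 2-fold difference.

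Over the 3 gates, 11 of the 85 tested members were higher in T-ALL by limma on log2(FPKM + 1), with gate as a block and Benjamini-Hochberg adjustment over 11616 genes. Of all tested genes 8.20% were called higher, so the members' count lies near the background. None of the members was lower, against 3.94% of all genes. Of the called members 9 are subunit genes, and 2, Rps27l and Rpl36al, are paralogs. All 85 members had a positive difference (82 of 85 with quantile normalization), with a median of 0.90, and 74 of them had an unadjusted p under 0.05, as did 19.4% of all genes in that direction. That count was 47 with quantile normalization (17.0% of all genes) and 23 without the block (11.3% of all genes). The 2 members left out by the filter on low values, which asked for 1 FPKM in 2 libraries, were Rpl39l and Rpl32l. Only 15 of the 77 subunit genes had their lowest T-ALL level above their highest normal level, beside 13.8% of all tested genes.

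The number of calls turned on single libraries. Without the normal or without the T-ALL Ly6cloF4/80lo library the state difference rests on the other 2 gates, and 75 or 76 of the 85 members were called higher, against 5.39% and 5.48% of all genes, with a median of 1.20. Without the normal or the T-ALL Ly6chiF4/80lo library 1 member was called, against 6.21% and 6.32% of all genes, with a median of 0.76. Without the normal or the T-ALL Ly6cloF4/80hi library none was, against 1.96% and 2.15% of all genes, with a median of 0.67. In these 4 fits by limma 15 to 21 members were higher at an unadjusted p under 0.05. Of all genes 12.8% to 18.2% were. Since each gate has 1 library per state, a difference between gates in their response to leukemia could not be tested.

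**Figure D4:**
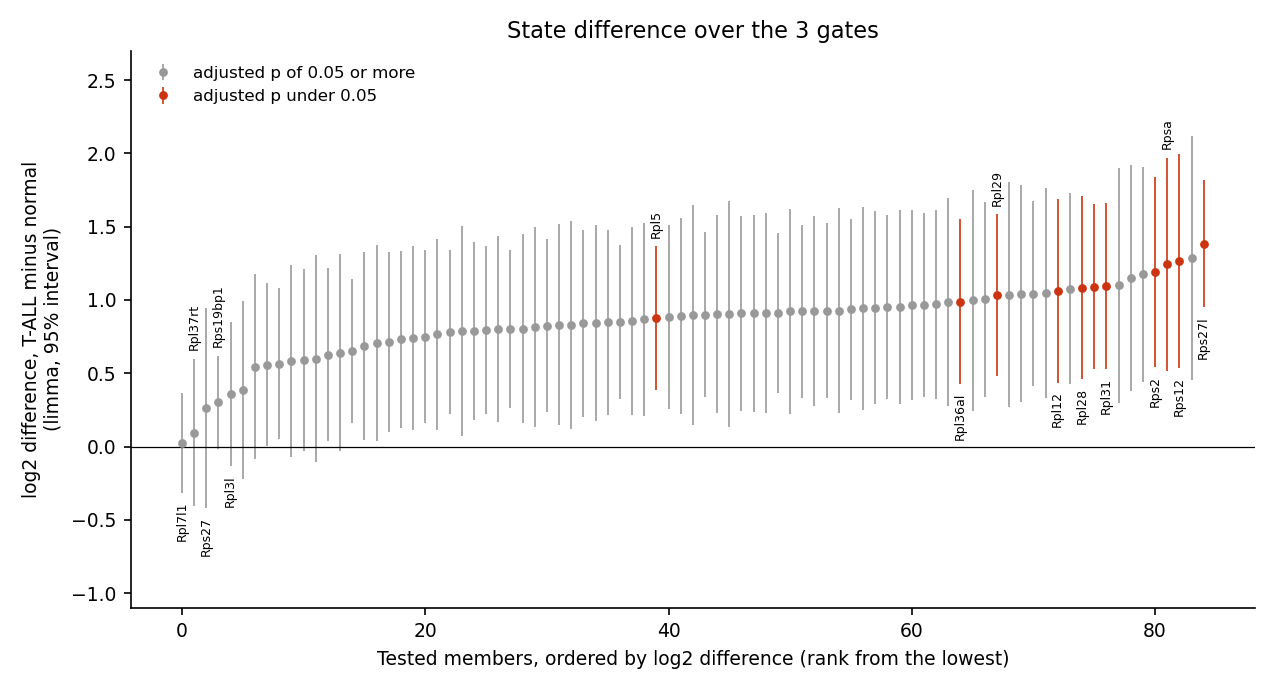
Log2 difference between T-ALL and normal over the 3 gates (limma) with its 95% interval for the 85 tested members, ordered by size, red where the adjusted p was under 0.05. Most of the 11 red members are named, as are the 5 lowest, from Rpl7l1 at 0.02 to Rpl3l at 0.36, and every point lies above 0.

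Genes of the cell cycle and of other cell types moved with state or gate as well. Between states 8.20% of all genes were called higher and 3.94% lower by limma. Against Ly6chiF4/80lo 2.68% of all genes were called higher in Ly6cloF4/80lo and 7.10% in Ly6cloF4/80hi. The sum of 6 cell cycle genes was 86.7, 108 and 81.8 FPKM in normal and 449, 433 and 655 in T-ALL, with all 6 called higher, and it was higher in T-ALL in Ly6cloF4/80lo as in the other gates. The sum of 5 B cell genes was 1261, 3051 and 1586 in normal and 1112, 2110 and 1681 in T-ALL, with none of the 5 called between states and 3 of 5 called higher in Ly6cloF4/80lo than in Ly6chiF4/80lo. The sum of 10 erythroid genes was 788, 531 and 4493 in normal and 804, 5406 and 36283 in T-ALL, with 4 of 10 called higher between states and all 10 higher in Ly6cloF4/80hi than in Ly6chiF4/80lo. The sum of 6 neutrophil genes was 10546 and 37368 in the normal and T-ALL Ly6chiF4/80lo libraries and at most 309 elsewhere, and that of 6 plasma cell genes was 5828, 730.1 and 459.8 in normal and 14596, 1715 and 1672 in T-ALL, with 5 of 6 called higher. The sum of 5 myeloid progenitor genes was 234, 24.5 and 12.2 in normal and 1730.0, 280.2 and 64.98 in T-ALL, with all 5 called higher and a median log2 difference of 2.54. The sum of 7 T cell genes, the lineage of the leukemia, was 119, 137 and 64.0 in normal and 67.5, 81.8 and 100.2 in T-ALL, with 1 of 7, Cd4, called lower and none higher. In Ly6cloF4/80hi Cd3d, Cd3e, Cd3g, Lck and Lat were higher in T-ALL, and Cd4 and Cd8a were lower. The part that these cells have in the members' levels was not tested.

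Among the proteins of the small subunit, Rps2 lines the channel through which mRNA enters. Rps2 measured 441, 1105 and 525 FPKM in the normal libraries and 1149, 1633 and 1623 in T-ALL. Every T-ALL library was above every normal one, and the log2 difference was 1.19 (SE 0.27, adjusted p = 0.0417). Its neighbour Rps3, which also takes part in DNA repair, measured 249, 578 and 249 in normal and 506, 646 and 567 in T-ALL, with a log2 difference of 0.79 (SE 0.25, adjusted p = 0.0837). Here the normal Ly6cloF4/80lo library overlapped the T-ALL libraries. Rps23, at the decoding centre, showed the same overlap with 606, 1597 and 591 FPKM in normal and 1281, 1708 and 1475 in T-ALL.

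Rps12, a protein of the small subunit's head, and Rpsa, the laminin receptor and a protein near the exit of the mRNA channel, had the highest called differences among subunit genes. The level of Rps12 was 110.5, 410.4 and 138 FPKM in normal and 356, 530.3 and 467 in T-ALL. That of Rpsa was 145, 475 and 159 in normal and 437, 614 and 546 in T-ALL. In both genes the normal Ly6cloF4/80lo library was above the T-ALL Ly6chiF4/80lo library, so the states overlapped. The log2 differences were 1.27 (SE 0.30, adjusted p = 0.0471) for Rps12 and 1.24 (SE 0.30, adjusted p = 0.0482) for Rpsa.

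Rps19 is the gene most often mutated in Diamond-Blackfan anemia, an inherited failure of red cell production. It measured 749.6, 1709 and 716 FPKM in normal and 1216, 1799.9 and 1436 in T-ALL, and its log2 difference of 0.59 (SE 0.26, adjusted p = 0.157) did not pass. A fixed list of 9 members linked to that disease, which need not be complete, was also looked at. Its median log2 difference was 1.18, 0.24 and 1.38 in the 3 gates, beside 1.11, 0.22 and 1.34 for all subunit genes. Rps24, also of this group, measured 259, 876 and 265 in normal and 791, 959 and 783 in T-ALL.

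Rps6 is the subunit protein phosphorylated by the S6 kinases downstream of mTORC1. Its level was 437, 939.5 and 428 FPKM in normal and 821, 1100.5 and 929 in T-ALL, somewhat above the median of the subunit genes in each library, with a log2 difference of 0.75 (SE 0.24, adjusted p = 0.0863). Rps14, whose loss is linked to the anemia of the 5q- syndrome, was at 747, 1480.2 and 601 in normal and 1452, 1649.9 and 1364 in T-ALL, lowest among the T-ALL libraries in Ly6cloF4/80hi. Rps20 and Rps15a were among the 5 lowest subunit genes by mean level. Rps20 was at 53.1, 184 and 69.9 in normal and 139, 201 and 179 in T-ALL, and Rps15a at 29.2, 86.1 and 32.3 in normal and 71.2, 98.3 and 83.3 in T-ALL.

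Rps27 and Rps29, small zinc-binding proteins, were the highest members by mean level and departed from the rest. Rps27 measured 1994, 5039 and 2125 FPKM in normal and 2757, 4167 and 3212 in T-ALL. It was highest of all 6 libraries in normal Ly6cloF4/80lo, and its log2 difference between states was 0.26 (SE 0.28, adjusted p = 0.537), the lowest of the 77 subunit genes. Rps29 measured 1130.3, 2774 and 1467 in normal and 2331, 2667 and 2575 in T-ALL, and was likewise highest in normal Ly6cloF4/80lo, with a difference of 0.60 (SE 0.29, adjusted p = 0.197).

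In the large subunit, Rpl5 and Rpl11 bind 5S ribosomal RNA and, when ribosome assembly fails, bind MDM2 and so raise p53. Rpl5 measured 113, 221 and 116 FPKM in normal and 225, 296 and 269.8 in T-ALL without overlap between states, and its log2 difference of 0.88 (SE 0.20, adjusted p = 0.0441) passed. Rpl11 measured 413, 1083 and 427 in normal and 941, 1233 and 1054 in T-ALL. There the normal Ly6cloF4/80lo library lay above the T-ALL Ly6chiF4/80lo and Ly6cloF4/80hi libraries, and the difference of 0.89 (SE 0.28, adjusted p = 0.0801) did not pass. The 2 partners thus had nearly equal fitted differences on either side of the threshold.

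The P-stalk, built of Rplp0, Rplp1 and Rplp2 on a base with Rpl12, recruits the elongation factors. Rpl12 measured 107, 372 and 158 FPKM in normal and 291, 474 and 422 in T-ALL, and its log2 difference was 1.06 (SE 0.26, adjusted p = 0.0487). Rplp0 measured 737, 1424 and 589 in normal and 1534, 1734 and 1660.0 in T-ALL, with all T-ALL libraries above all normal ones, and a difference of 0.94 (SE 0.29, adjusted p = 0.0758). Rplp1 measured 385, 1418 and 549.9 in normal and 1038, 1589.6 and 1576 in T-ALL, with a difference of 1.04 (SE 0.32, adjusted p = 0.0775). Only in Rplp0 did the states not overlap among these 4 genes. Rplp2 measured 252, 780.2 and 295 in normal and 657, 889 and 872 in T-ALL, with a difference of 1.04 (SE 0.30, adjusted p = 0.0701). The 4 genes had a median log2 difference within the gates of 1.40, 0.24 and 1.51.

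Several proteins line or ring the tunnel through which the new chain leaves. Rpl31, at the mouth of the tunnel, measured 90.5, 236 and 105 FPKM in normal and 227, 329 and 298 in T-ALL and rose by 1.10 on the log2 scale (SE 0.23, adjusted p = 0.0369). Rpl4, which reaches into the tunnel, measured 631, 1362 and 590.0 in normal and 1189, 1602 and 1407 in T-ALL, with a difference of 0.80 (SE 0.26, adjusted p = 0.0891). Rpl39, a short protein of the tunnel wall, measured 169, 608 and 259 in normal and 486, 701 and 691 in T-ALL. In all 3 the normal Ly6cloF4/80lo library exceeded the T-ALL Ly6chiF4/80lo library. Rpl17 measured 118, 354 and 125 in normal and 309, 441 and 341 in T-ALL, and its difference of 1.04 (SE 0.26, adjusted p = 0.0513) fell just outside the threshold. The 9 tunnel genes had a median of 1.03, 0.22 and 1.29 within the gates.

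Rpl28 and Rpl29, which have no counterpart in the ribosome of bacteria, both rose without overlap of the states. Rpl28 measured 215, 443 and 184 FPKM in normal and 489, 606 and 571 in T-ALL, with a log2 difference of 1.08 (SE 0.26, adjusted p = 0.0471). Rpl29 measured 198, 389.6 and 203 in normal and 430.0, 563 and 557 in T-ALL, with a difference of 1.03 (SE 0.23, adjusted p = 0.0397). Rpl3, whose extension reaches toward the peptidyl transferase centre, measured 438, 911 and 440.2 in normal and 809.7, 1136 and 1000.1 in T-ALL, with a difference of 0.80 (SE 0.24, adjusted p = 0.074). Rpl10, added last when the large subunit matures in the cytoplasm and mutated in some human T-ALL, measured 683, 1151 and 541 in normal and 1661, 1352 and 1256 in T-ALL. It was highest in T-ALL Ly6chiF4/80lo, with no overlap between states and a difference of 0.91 (SE 0.28, adjusted p = 0.077).

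Rpl41 encodes one of the shortest proteins of the mammalian cell. It measured 759.7, 1973 and 816 FPKM in normal and 2847, 2533 and 2478 in T-ALL, and the T-ALL Ly6chiF4/80lo library was its highest. The states did not overlap, and its log2 difference of 1.29 (SE 0.34, adjusted p = 0.0578) was the highest of the subunit genes though it did not pass. Rpl13 and Rpl32 were also among the 5 highest members by mean level. Rpl13 measured 1304, 2594 and 1171 in normal and 2169, 2752 and 2518 in T-ALL, and Rpl32 944, 2053 and 933 in normal and 1762, 2198 and 2038 in T-ALL. Rpl22, whose gene is deleted in some T cell leukemias, was the lowest subunit gene by mean level, at 25.9, 74.2 and 30.3 in normal and 59.7, 86.8 and 76.2 in T-ALL, with a difference of 0.90 (SE 0.23, adjusted p = 0.0541).

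The remaining subunit genes lay between these. Those whose T-ALL libraries all exceeded the normal ones without passing the test included Rpl24, Rpl27, Rpl35a, Rpl38, Rpl7a and Rpl8 beside Rpl10, Rpl41 and Rplp0. Rpl38, known for its part in the translation of Hox mRNAs, measured 355, 692 and 402 in normal and 783, 832 and 846 in T-ALL, with a difference of 0.83 (SE 0.24, adjusted p = 0.0719). Rpl7a measured 259, 581 and 239.9 in normal and 639, 755 and 705 in T-ALL, with a difference of 1.08 (SE 0.27, adjusted p = 0.0513). Rps27a, made as a fusion with ubiquitin, measured 455, 1149 and 409 in normal and 1062, 1298 and 1068 in T-ALL, with a difference of 0.93 (SE 0.29, adjusted p = 0.0801), and its states overlapped. Rps21 and Rps10, of the small subunit, had differences of 1.15 (SE 0.32, adjusted p = 0.0621) and 1.17 (SE 0.30, adjusted p = 0.054). In all, 50 of the 85 tested members had an adjusted p between 0.05 and 0.1 by limma. The share of all genes in that range was not computed, so the count stands without a background. It was 14 with no filter, 20 with quantile normalization, 0 with no block and 63 without trend and robust prior.

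Several paralogs did not keep one proportion to their parent gene over the libraries, which 1 library each leaves without a test. Rps27l is a near copy of Rps27 and a known target of p53. Rps27l measured 187, 162 and 129 FPKM in normal and 484, 359 and 402 in T-ALL, so that the lowest T-ALL library was above the highest normal one in this gene while its parent overlapped. Its log2 difference within the gates was 1.37, 1.14 and 1.64, where Rps27 had 0.47, -0.27 and 0.60. Over the 3 gates it was 1.38 (SE 0.18, adjusted p = 0.0122), the highest of all members. The share of Rps27l in the summed level of the pair was 8.57%, 3.12% and 5.71% in normal and 14.9%, 7.94% and 11.1% in T-ALL, higher in T-ALL in each gate.

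Rpl36al encodes a protein nearly identical to that of Rpl36a. Rpl36al measured 419, 449 and 299.8 FPKM in normal and 1065, 629.7 and 659.9 in T-ALL, without overlap, and rose by 0.99 on the log2 scale (SE 0.23, adjusted p = 0.0457). Rpl36a measured 207, 575 and 255 in normal and 519, 688 and 691 in T-ALL, with a difference of 1.00 (SE 0.27, adjusted p = 0.0613). Rpl36al's share of the pair was 66.9%, 43.9% and 54.0% in normal and 67.2%, 47.8% and 48.9% in T-ALL. It was highest in Ly6chiF4/80lo in both states.

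Rpl37rt, a retrogene copy of Rpl37, measured 65.7, 126 and 106 FPKM in normal and 104, 112 and 92.5 in T-ALL, with a difference over the gates of 0.10 (SE 0.21, adjusted p = 0.768). Rpl37 measured 122, 351 and 124 in normal and 278, 374 and 352 in T-ALL, with a difference of 0.92 (SE 0.29, adjusted p = 0.0807). The copy's share of the pair was 34.9%, 26.4% and 46.0% in normal and 27.2%, 23.0% and 20.8% in T-ALL, lower in T-ALL in each gate. Reads of so close a copy can be split in more than one way, since 31.3% of the 50-base windows of Rpl37 were also found in another gene, most often Rpl37rt.

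Rpl22l1 and Rpl22 kept their proportion. Rpl22l1 measured 107, 286 and 139.8 FPKM in normal and 240.5, 363 and 330.0 in T-ALL, with a log2 difference of 0.91 (SE 0.22, adjusted p = 0.0501). Its share of the pair was between 79.4% and 82.2% in the 6 libraries, so the paralog was the more abundant of the pair per length in each of them. Rps23rg1, a retrogene copy of Rps23, measured 14.1, 37.4 and 13.4 in normal and 29.00, 42.3 and 33.1 in T-ALL, at 2.19% to 2.41% of its pair. The remaining copies were low. Rpl3l, the muscle form of Rpl3, measured 2.97, 0.97 and 0.25 in normal and 4.03, 2.07 and 0.33 in T-ALL. Its share of the pair was 0.674%, 0.106% and 0.0568% in normal and 0.495%, 0.182% and 0.033% in T-ALL, highest in Ly6chiF4/80lo in both states. Rpl39l, the form known from testis, measured 0.35, 0.33 and 0.34 in normal and 0.19, 0.46 and 0.74 in T-ALL. Rpl32l was listed in 3 libraries, at 0.40 in normal Ly6cloF4/80lo, 0.40 in normal Ly6cloF4/80hi and 0.31 in T-ALL Ly6chiF4/80lo.

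**Figure D5:**
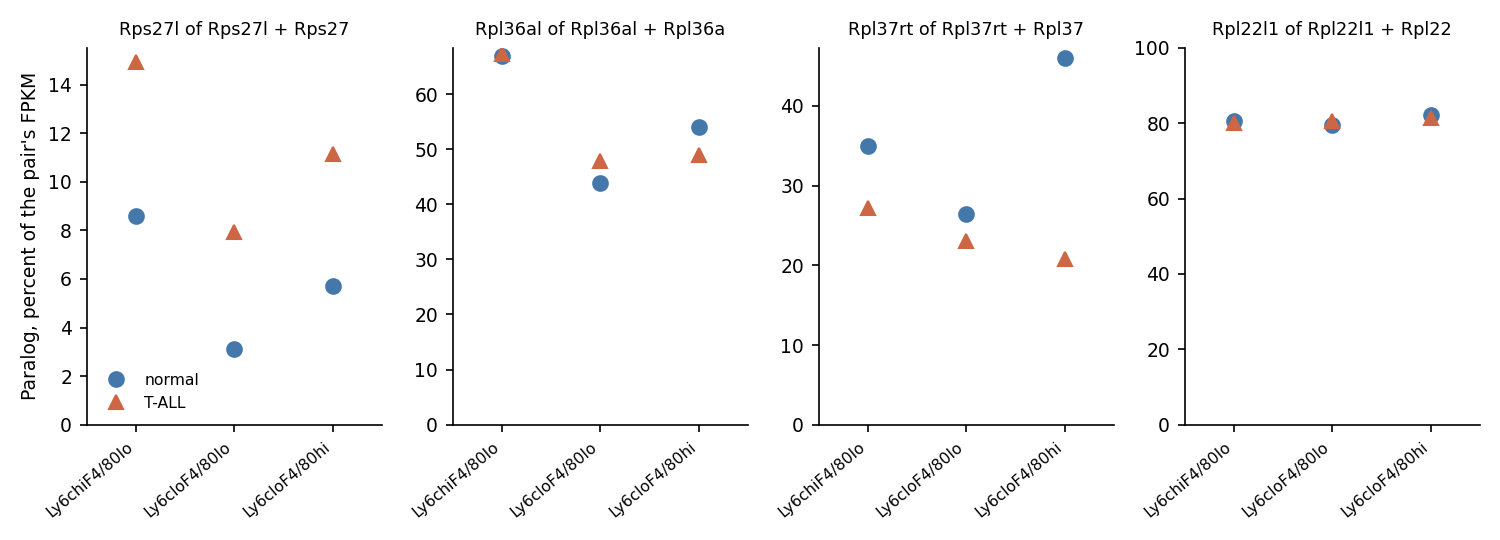
Share of the paralog in the summed FPKM of paralog and parent gene for 4 pairs in each gate, circles for normal and triangles for T-ALL, 1 library per point, with the axis of each panel starting at 0. Rps27l lies higher and Rpl37rt lower in T-ALL in each gate, and Rpl22l1 stays between 79.4% and 82.2%.

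The 2 members that encode no subunit did not share the family's pattern of levels. Rps19bp1, a regulator of the deacetylase SIRT1 that binds Rps19, measured 23.3, 26.03 and 24.2 FPKM in normal and 26.5, 33.2 and 31.9 in T-ALL, with a difference of 0.30 (SE 0.13, adjusted p = 0.158). Rpl7l1, a factor in the assembly of the large subunit, measured 72.9, 74.5 and 74.8 in normal and 66.7, 84.1 and 76.2 in T-ALL, with a difference of 0.02 (SE 0.14, adjusted p = 0.913). In both, the 3 normal libraries lay close to one another.

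Set against the family's median in the same library, the subunit genes kept close together. The range of this relative log2 level over the 6 libraries was under 1 in all 77, with a median of 0.37, a lowest of 0.10 and a highest of 0.81 in Rps27. Among members of mean level of at least 10 FPKM, the SD of the relative level over libraries was highest in Rpl7l1 (0.67), Rps27l (0.57), Rpl37rt (0.57), Rps19bp1 (0.53) and Rpl36al (0.51), none of which is a standard subunit gene. Among the subunit genes it was 0.38 in Rps27 and 0.29 in Rps12.

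Between gates, the limma fit with state as a block called 1 member. Rpl3l was lower in Ly6cloF4/80hi than in Ly6chiF4/80lo, by a log2 difference of -1.79 (SE 0.25, adjusted p = 0.00902), as were 5.68% of all genes. None was higher there, against 7.10% of all genes. The members' median of 0.12 equalled that of all tested genes, and after median-ratio scaling, with 5.52% of all genes called higher and 6.61% lower, it was 0.00. The widest differences in this comparison beside it were those of Rpl36al (-0.59), Rps27l (-0.40), Rpl10 (-0.37) and Rps14 (-0.20) on the low side. On the high side they were those of Rpl39 (0.56), Rplp1 (0.56), Rpl12 (0.54), Rpl22l1 (0.42) and Rpl21 (0.40), none of which passed.

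In Ly6cloF4/80lo against Ly6chiF4/80lo 0 of 85 members passed the limma test, while 2.68% of all genes were called higher and 2.05% lower (1.34% and 2.33% after median-ratio scaling). Their median log2 difference was 0.80, where all tested genes had 0.19. An unadjusted p under 0.05 in the higher direction was found for 45 members and for 18.7% of all genes. After median-ratio scaling it was found for 11 members and 9.45% of all genes, and the median was 0.59. Rplp1 (1.25), Rpl12 (1.24, adjusted p = 0.081 by limma), Rps12 (1.23), Rpl39 (1.18) and Rps20 (1.15) had the highest differences. The lowest were those of Rpl3l (-0.86), Rpl36al (-0.33), Rps27l (-0.32), Rpl7l1 (0.18) and Rpl10 (0.23). The size turned on the Ly6cloF4/80lo libraries. Without the T-ALL one the median of the members was 1.26, and without the normal one it was 0.33.

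In Ly6cloF4/80hi against Ly6cloF4/80lo again 0 of 85 passed by limma, against 2.66% of all genes called higher and 0.904% lower. All 85 differences were negative (82 of 85 after median-ratio scaling), with a median of -0.68 beside -0.10 over all tested genes, and 14 had an unadjusted p under 0.05, as did 10.4% of all genes in that direction. After median-ratio scaling 3 had. Of all genes 17.5% had in either direction, and 10.1% had in the higher direction. The members' median was then -0.58. Rpl34 (-1.02), Rps24 (-1.01), Rpl30 (-0.96), Rpl17 (-0.93) and Rpl3l (-0.93) were lowest. Nearest to 0 were Rpl7l1 (-0.07), Rps19bp1 (-0.08), Rps27l (-0.08), Rpl36al (-0.26) and Rpl37rt (-0.26). Without the T-ALL Ly6cloF4/80lo library 25 members were called lower, against 0.577% of all genes, with a median of -1.16. Without the normal Ly6cloF4/80lo library 0 were called, 79 of 85 differences were negative and the median was -0.19. Without the normal Ly6cloF4/80hi library the median was -0.36, and 0 were called by limma, with 1 at an unadjusted p under 0.05 in each of these last 2 fits. These gate comparisons share libraries with each other, and the shifts of all genes in them (0.12, 0.19 and -0.10) were near 0 after median-ratio scaling.

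Within a state the gates can be compared by 1 library each, without a test. The level of Rpl34 was 302, 861 and 267 FPKM in normal and 819, 929 and 730.0 in T-ALL. That of Rpl30 was 207, 684 and 213 in normal and 495, 683 and 579 in T-ALL, and that of Rpl21 163, 355 and 201 in normal and 266, 379 and 375 in T-ALL. Their normal libraries split widely and their T-ALL libraries did not, as in the family as a whole. In normal, 66 of 84 members were at least 2-fold higher in Ly6cloF4/80lo than in Ly6chiF4/80lo (6.54% of all genes), with a median of 1.20. In T-ALL the count was 0 (5.61% of all genes), with a median of 0.38. For Ly6cloF4/80hi against Ly6cloF4/80lo, 69 of 84 were 2-fold lower in normal (6.78% of all genes) and 0 in T-ALL (2.39% of all genes), with medians of -1.22 and -0.15. Between Ly6cloF4/80hi and Ly6chiF4/80lo no member was 2-fold apart in either state, where 8.93% of all genes were higher and 7.12% lower in normal, and 9.02% and 6.55% in T-ALL. The medians of the members were 0.02 and 0.23.

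The other genes of translation had the family's pattern in part. In the state comparison by limma, 5 of 22 other mRNAs of the TOP class were called higher and none lower, beside 8.20% and 3.94% of all genes, with a median log2 difference of 0.71. Npm1, a nucleolar chaperone, measured 144, 350.4 and 175 FPKM in normal and 295, 641 and 549 in T-ALL, with a difference of 1.18 (SE 0.21, adjusted p = 0.025). Rack1, a scaffold on the small subunit, measured 145, 286 and 151 in normal and 326, 441 and 407 in T-ALL, with a difference of 1.07 (SE 0.21, adjusted p = 0.0306). Eef1a1, the elongation factor that brings tRNA to the ribosome, measured 1726, 3849 and 1793 in normal and 3365, 4348 and 3831 in T-ALL, and its difference of 0.74 (SE 0.29, adjusted p = 0.124) did not pass. Its levels follow those of the subunit genes, lowest in normal Ly6chiF4/80lo and Ly6cloF4/80hi. The poly(A)-binding protein gene Pabpc1, also of this class, did not follow, with 147, 150.1 and 112 in normal and 119.8, 146 and 170.2 in T-ALL.

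Rack1 and Fau are ribosomal proteins whose symbols do not follow the family's naming, and Fau is made as a fusion with a ubiquitin-like protein. Fau measured 1014, 2449.9 and 895 FPKM in normal and 1635, 2157 and 1785 in T-ALL, with a difference of 0.50 (SE 0.29, adjusted p = 0.267). It was highest in Ly6cloF4/80lo in each state, like most members.

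The genes that make ribosomes had a smaller median difference over the gates than the ribosomal protein genes. Of 53 ribosome biogenesis genes 7 were called higher in T-ALL and none lower by limma, beside 8.20% and 3.94% of all genes, with a median of 0.40, and the medians within the gates were 0.17, 0.42 and 0.53. In this list Ly6cloF4/80lo lay between the other gates, where in the members it was the lowest. The difference between the lists was not tested. Nop58, of the box C/D snoRNP, measured 27.4, 51.3 and 38.9 FPKM in normal and 47.8, 82.8 and 84.4 in T-ALL, with a difference of 0.85 (SE 0.15, adjusted p = 0.023). Ncl, encoding nucleolin, measured 41.8, 57.7 and 50.01 in normal and 52.4, 99.8 and 103 in T-ALL, with a difference of 0.71 (SE 0.18, adjusted p = 0.0509). Of 14 genes of RNA polymerase I and 5S transcription, 1 was called higher, Polr1c, and none lower, with a median of 0.21.

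Of 26 initiation factor genes 8 were called higher and none lower by limma, beside 8.20% and 3.94% of all genes, with a median of 0.55, and with 0.34, 0.51 and 0.75 within the gates. Eif1ax, which helps the scanning of the start codon, measured 34.5, 40.8 and 29.3 FPKM in normal and 67.9, 83.5 and 75.02 in T-ALL, with a difference of 1.10 (SE 0.14, adjusted p = 0.0127). Among 22 genes of Myc, mTORC1 and TOP control none was called higher and 1 lower, with a median of 0.22. Myc measured 29.8, 73.3 and 73.5 in normal and 35.8, 91.5 and 81.4 in T-ALL, with a difference of 0.24 (SE 0.13, adjusted p = 0.247). Mtor measured 8.12, 8.40 and 8.12 in normal and 7.30, 7.88 and 6.97 in T-ALL, and Larp1 8.24, 6.56 and 7.26 in normal and 7.94, 9.81 and 8.53 in T-ALL. The called gene was Mycl, at 4.04, 11.7 and 4.66 in normal and 1.58, 6.18 and 2.43 in T-ALL.

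The genes whose pattern was most like the mean of the members over the 6 libraries, among 6384 genes of mean level of at least 10 FPKM, included Eef1a1 (Pearson r of log2 levels 0.998), Eef1b2 (0.997), Gm5148 (0.995) and Aimp1 (0.991). With 6 libraries that share gates and states these values are a description. Eef1b2, another elongation factor subunit, measured 65.02, 163 and 72.2 FPKM in normal and 160.1, 196 and 176 in T-ALL. Aimp1, of the multi-tRNA synthetase complex, measured 25.4, 41.98 and 26.1 in normal and 42.8, 53.3 and 46.6 in T-ALL.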

How the data were processed

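Per the labels, RNA of sorted spleen macrophages was made into Illumina libraries. Each deposited file holds FPKM per gene, and the submitters' processing notes name Bowtie2 2.2.5 and RSEM. Neither build nor annotation is given in the sources used here. Genes absent from a file were set to 0. Symbols for 16017 of 16058 identifiers came from a RefSeq table of GRCm38.p6.

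Values were analysed as log2(FPKM + 1) for the 11616 genes with at least 1 FPKM in 2 of 6 libraries. A linear model with gate and state was fitted with limma 3.58.1 in R 4.3.3 (trended, robust prior, 2 residual degrees of freedom, two-sided) and was tested on simulated data. Adjusted p under 0.05 passed (Benjamini-Hochberg over all tested genes). Tables and figures were made with Python 3.11.15, pandas 2.3.3 and matplotlib 3.10.9. Sequences came from RefSeq tables and GENCODE M21 transcripts.

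Genes named were members that passed, the 5 highest and lowest by difference or mean level, those most variable against the family, all paralogs and a set of well-known members. A few others (Rpl7a, Rpl38, Rps10, Rps21, Rps27a and genes counted as exceptions) were named after their values were seen, and some genes are not reported here. Members, lists and tests were chosen with earlier results of these data known. Alternatives were a pseudocount of 0.1, other filters and scalings, no block, another prior, another denominator, and each library left out.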

Additional observations from a re-analysis of the deposited data

Results flagged for a closer look

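In Rps27, Rpl37rt and Rpl7l1 the log2 difference between T-ALL and normal, of at least 0.1 in size, had opposite signs in different gates. With 1 library per gate and state this difference between gates was not tested. Rps27, of the small subunit, had 0.47, -0.27 and 0.60 in Ly6chiF4/80lo, Ly6cloF4/80lo and Ly6cloF4/80hi. It was lower in T-ALL in Ly6cloF4/80lo, the gate in which most other members were close to their normal level. The retrogene copy Rpl37rt had 0.65, -0.17 and -0.19, so that it was higher in T-ALL in Ly6chiF4/80lo and lower in the other two gates. Rpl7l1, which encodes no subunit of the cytosolic ribosome, had -0.13, 0.17 and 0.03.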

How the results depend on the processing

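The median log2 difference of the members between states stayed positive, from 0.61 with quantile normalization to 1.20 without a Ly6cloF4/80lo library, beside 0.90 as reported. The count of members called moved more. It was 11 as reported, where 8.20% of all genes were called higher. It was 17 with a pseudocount of 0.1 (9.70% of all genes) and 17 with a mean of at least 5 FPKM (11.2%), 7 without trend and robust prior (6.57%) and 5 with median-ratio scaling (7.76%). It was 1 with no filter (1.82%), with quantile normalization (6.50%) and with no block (1.27%). Leaving out 1 library gave 0 to 76. For Ly6cloF4/80hi against Ly6chiF4/80lo the call of Rpl3l was lost with no block, and with a mean of at least 5 FPKM, where it was not tested, so that 0 members were called. The median there ranged from -0.21 to 0.42 with 1 library left out. For Ly6cloF4/80lo against Ly6chiF4/80lo the count was 0 as reported, and 0 to 32 with 1 library left out. For Ly6cloF4/80hi against Ly6cloF4/80lo it was 0 as reported, and 0 to 25 with 1 library left out. The 32 (higher) and the 25 (lower) came without the T-ALL Ly6cloF4/80lo library, against 1.11% and 0.577% of all genes in those directions. That fit keeps only 1 library of the Ly6cloF4/80lo gate. Within gates, quantile normalization left 21 members past 2-fold in Ly6chiF4/80lo (median 0.74), 0 in Ly6cloF4/80lo and 43 in Ly6cloF4/80hi. The share of all genes past 2-fold was not computed after this normalization, so these counts stand without a background. Without paralogs and genes of no subunit the count in Ly6cloF4/80lo was 0. The summed shares rose with the smaller denominator to 19.4% in normal Ly6cloF4/80lo, and to 17.1%, 20.2% and 18.8% in T-ALL. Rpl37rt's difference between states, 0.10 as reported, was -0.042 with quantile normalization and -0.18 to 0.24 with 1 library left out, negative without either Ly6chiF4/80lo library. Rps27l stayed called in 11 of 13 alternatives, with an adjusted p by limma of 0.0102 to 0.0644, and was lost without either Ly6cloF4/80hi library. The other called members held in 4 to 6 of 13. The cause was not tested. A fit without 1 library has fewer samples, and its state difference rests on the gates that keep both libraries. The fit as reported pairs the states by gate, and no fit could pair replicates within a gate and state, which has 1 library. Counting error at the median member was at most 2.40%, from depths estimated by the spacing of low values.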

Other observations

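The ribosomal proteins of the mitochondrion, which are encoded in the nucleus and make no part of the cytosolic ribosome, were also compared between states. By limma 25 of 78 were higher in T-ALL and none lower, where 8.20% of all genes were called higher, and their median log2 difference was 0.49. Within the gates their medians were 0.39, 0.43 and 0.64, beside 1.10, 0.22 and 1.32 in the cytosolic genes. Mrps28 measured 26.7, 36.04 and 30.7 FPKM in normal and 68.1, 62.1 and 71.2 in T-ALL, with a difference of 1.09 (SE 0.16, adjusted p = 0.0158). Mrpl12, which also binds the mitochondrial RNA polymerase, measured 39.1, 47.02 and 42.97 in normal and 57.8, 94.8 and 95.05 in T-ALL, with a difference of 0.89 (SE 0.16, adjusted p = 0.0257). The difference between the mitochondrial and the cytosolic genes was not tested.

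Among 11 genes of ribosome quality control 1, Abce1, which splits ribosomes after termination, was called higher in T-ALL by limma and none was lower, a share near the 8.20% of all genes called higher. It measured 29.2, 35.4 and 28.9 FPKM in normal and 44.6, 55.4 and 56.6 in T-ALL, with a difference of 0.72 (SE 0.14, adjusted p = 0.0306). Of the genes of the reference that fit the rule for members, 8 are not among the listed genes, and 2 of them, Rpl10l and Rps27rt, are protein coding. Rps27rt shares windows with Rps27, of which 63.1% were also found in another gene.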
